A study of Homo sapiens with 2 samples.

Results

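Sense-intronic RNAs are non-coding transcripts annotated inside the introns of other genes and on the same strand as those genes. They were taken as all RNAs that the authors' deposited table classes as sense_intronic, which gave 193 of 3576 listed RNAs. The class was assigned by annotation, so no measured value chose the members among the listed RNAs. How an RNA came to be listed is not given, and it may have depended on its reads. RNA was sequenced from A375 cells, an established human melanoma line labelled WT and skin, after 8 Gy of ionizing radiation (labelled IR) and at 0 Gy (labelled control), with 1 library per dose. All values thus come from 1 cell line. The labels name no time between irradiation and harvest. The study asked how melanoma cells come to resist radiation.

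The deposited table holds a fold change between a pair of libraries that it does not tie to a dose by any label. The text below calls them the numerator and denominator libraries, after their place in that fold change, and says nothing of which was irradiated. Sequencing depth per library is unknown. The fold changes lie on ratios of whole numbers for 3535 of the 3576 RNAs (98.9%) and for 192 of the 193 sense-intronic RNAs. Each such ratio gives the smallest pair of whole reads that can lie behind a value, once the denominator library is taken as 1.10 times as deep. The real numbers could be that pair or the pair times any whole number. Intervals below are exact (Clopper-Pearson) 95% intervals on that pair, and a larger multiple of the pair would give a narrower one. Where the pair holds a 1, which may stand for 0 reads, the interval is no outer limit. They cover counting error only, and the labels mention no molecular identifiers that would tell PCR copies apart. There is no replicate, so no difference has a replicate check. Among non-coding markers, 2 of 5 for melanoma were listed, SAMMSON with a pair of 335 against 337 reads and BANCR with 244 against 329. Of the blood markers 0 of 3 were listed, of fibroblast and endothelial markers 2 of 4 (MIR503HG with 14 against 15 and LINC00565 with 34 against 13), and of epithelial markers 2 of 4 (TINCR with 213 against 215 and LINC00511 with 147 against 173). Their part in the results was not tested.

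An intron is normally cut out of the precursor RNA and degraded quickly, so that intronic sequence is scarce beside the exons of the same gene. A sense-intronic transcript can come from a start site of its own within the intron, or can be a stretch of precursor or excised intron that escaped degradation. Short reads on the strand of the host gene fall on both kinds of molecule, which cannot be told apart in these data. The strand setting of the counting is not given either. Reads of genes on the opposite strand may therefore be included, and 19 members overlap an annotated exon of that strand.

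The annotation is GENCODE 29 (GRCh38), which holds 188 of the 193 members, 174 of them with the same transcript version. GENCODE 29 classes 177 of these as sense_intronic too. It gives 7 to a protein-coding gene and 4 to other classes. A host gene on the same strand was found for 183 members. The host was protein-coding for 173 of them. In all 170 host genes hold the 183, and 175 members lie wholly inside an intron of a host transcript. For 54 of them it was the first intron of that transcript. The transcripts have 1 exon in 74 cases, 2 exons in 100 and 3 or more in 14, and their median length is 531.5 bases. Of the members, 16 overlap an exon of some transcript of the host.

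Sequences are shown for 4 members with at least 30 reads in 1 library: 3 that stood among the 10 highest fold changes of such members, and ZBTB40-IT1, the lowest of them. AC124312.5 and ZBTB40-IT1 are whole, and the others are the last 100 bases of the transcript. They are written 5′ to 3′ on the strand of the transcript, from GENCODE 29. Capitals mark a polyadenylation hexamer, AATAAA or ATTAAA, where a search of the transcript strand found one in the last 50 bases.
AC124312.5: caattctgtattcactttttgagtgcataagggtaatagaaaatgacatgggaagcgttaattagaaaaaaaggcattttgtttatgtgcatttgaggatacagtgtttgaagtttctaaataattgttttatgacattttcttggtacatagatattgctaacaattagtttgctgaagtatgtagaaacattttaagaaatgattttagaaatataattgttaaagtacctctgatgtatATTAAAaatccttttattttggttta
STARD13-IT1: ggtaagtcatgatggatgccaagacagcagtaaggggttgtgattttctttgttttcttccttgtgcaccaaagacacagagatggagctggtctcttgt
Z83843.1: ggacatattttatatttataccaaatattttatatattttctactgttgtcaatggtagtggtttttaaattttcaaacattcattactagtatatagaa
ZBTB40-IT1: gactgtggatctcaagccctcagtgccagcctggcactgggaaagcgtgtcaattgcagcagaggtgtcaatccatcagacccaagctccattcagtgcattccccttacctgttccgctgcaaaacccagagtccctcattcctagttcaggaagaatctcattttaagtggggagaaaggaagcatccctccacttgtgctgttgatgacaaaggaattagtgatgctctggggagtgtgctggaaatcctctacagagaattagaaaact

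AC124312.5 lies at chr15:24991486-24991753 on the plus strand and has a GC content of 26.5%, whereas ZBTB40-IT1 spans chr1:22517474-22519708 on the plus strand with a GC content of 49.1%. STARD13-IT1 spans chr13:33158587-33164409 (minus strand, 38.5% GC), and Z83843.1 lies at chrX:74209976-74213660 (minus strand, 32.0% GC). Over the class, 74 of 188 transcripts with a sequence (39.4%) held a hexamer in the last 50 bases, AATAAA in 59 and only ATTAAA in 15. The share was 43.3% among 570 lincRNAs, 39.3% among 666 antisense RNAs and 40.3% over all 1545 listed RNAs with a GENCODE 29 sequence. No match says only that these letters are not in the last 50 bases of the annotated transcript.

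Most sense-intronic RNAs stood higher in the numerator library. Of the 193, 146 (75.6%) had a log2 fold change above 0 in the authors' deposited table, against 60.9% of all listed RNAs. By 2-fold or more, 57 members (29.5%) were higher, against a background of 16.3% over all listed RNAs. By the same margin 6 (3.11%) were lower, against a background of 6.35%. The middle 50% of members ran from 0.0053 to 1.26 on the log2 scale, and the extremes were -3.77 and 4.38. The median over all listed RNAs was 0.16 rather than 0. Relative to it, 53 members were higher by 2-fold and 9 lower, against backgrounds of 13.1% and 8.19%. The counting interval lay above 1-fold for 54 members (background 21.4%) and below it for 6 (background 7.72%), and it held 1-fold for the remaining 132 with a pair.

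**Figure D1:**
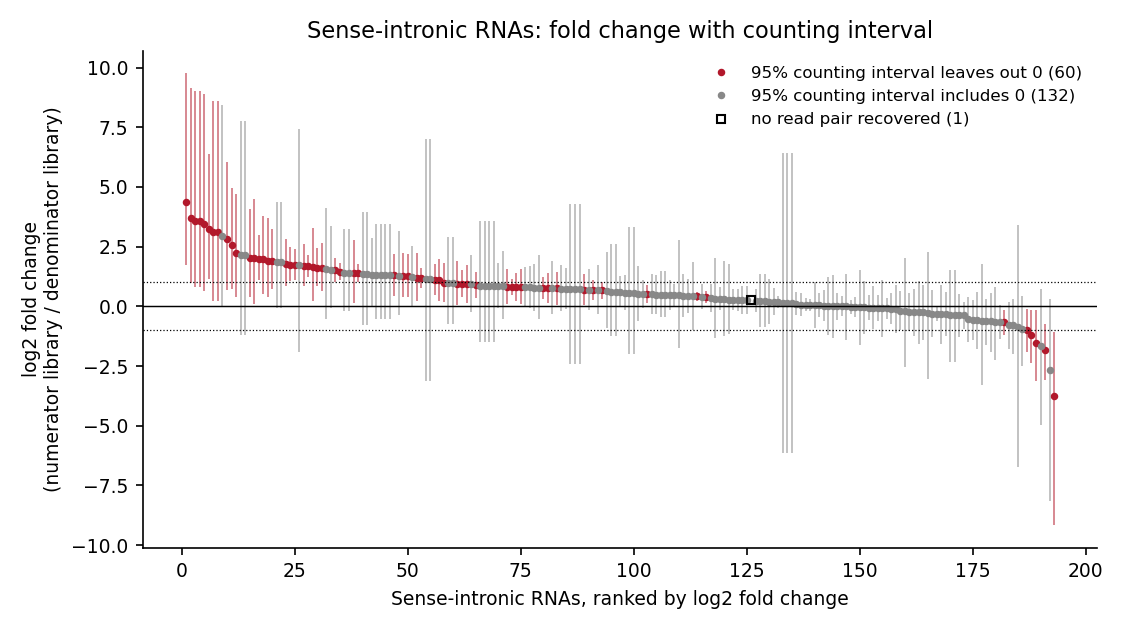
The 193 sense-intronic RNAs ranked by log2 fold change, numerator library over denominator library (y axis), with vertical lines for the exact 95% counting interval and dotted lines at 2-fold. The interval leaves out 0 for 60 members, drawn in red, and the widest intervals belong to members whose smallest pair holds a 1.

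A deposited p under 0.05 was given to 2 members in the authors' deposited table (background 3.8%) and a q under 0.05 to 0 (background 0.839%), and q was 1 for 192 of the 193. The 2 were AC124312.5, with p = 0.00123 and q = 0.249 in the authors' deposited table, and WWTR1-IT1, with p = 0.0428 there. The deposited p-values of the members did not follow the reads: Spearman's correlation between p and the larger number of the pair was 0.0025 over 192 members, given as a description. Z83843.1, from a pair of 227 against 91, has p = 0.339 in the authors' deposited table, while AC124312.5 has the lower p from a pair of 157 against 54.

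The larger number of the pair, the least reads possible, had a median of 22.5 over the members, against 37 over all other listed RNAs. Higher values were not limited to members with small pairs. With 100 or more reads, 5 of 19 members (26.3%) were higher by 2-fold and 0 lower, and their median was 0.51 on the log2 scale. Among the other RNAs with such pairs, 5.62% of 854 were at least 2-fold higher and the median was 0.11. With 30 to 99 reads the members' median was 0.50 (61 RNAs), against 0.17 for 1025 other RNAs. With 10 to 29 reads it was 0.52 (69 RNAs) against 0.19, and with 1 to 9 reads 0.72 (43 RNAs) against 0.31. The median of the members thus lay above that of the other RNAs in each of these read ranges.

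**Figure D2:**
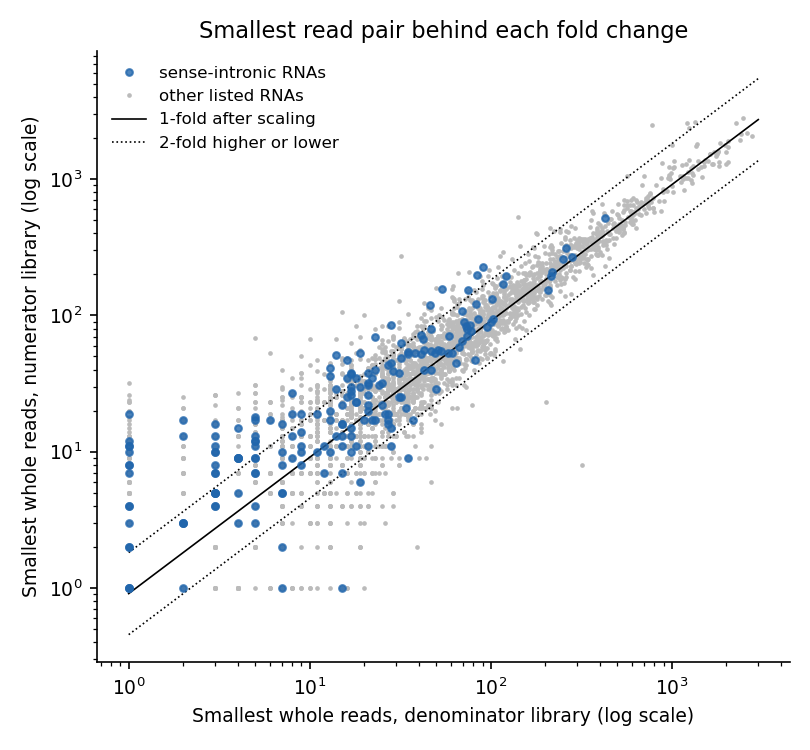
Smallest whole reads behind each fold change, in the numerator library (y) and the denominator library (x), both on log scales, for sense-intronic RNAs in blue and other listed RNAs in grey. The blue points above the upper dotted line are members past 2-fold on the numerator side, and they reach a pair of 227 against 91.

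Set beside the classes most like it, the sense-intronic class had a median log2 fold change of 0.62, sense-overlapping RNAs 0.65, lincRNAs 0.30 and antisense RNAs 0.07. The share at least 2-fold higher was 29.5% for sense-intronic RNAs, 36.6% for sense-overlapping RNAs, 20.2% for lincRNAs and 15.8% for antisense RNAs. The share with a counting interval above 1-fold was 28.0%, 34.1%, 27.9% and 15.0% in the same order. By that measure the members did not stand above lincRNAs. The larger number of the pair had medians of 22.5, 43, 30.5 and 25 reads in these classes. Sense-intronic and sense-overlapping RNAs both lie on the strand of another gene. The share at least 2-fold lower was 3.11% for sense-intronic RNAs, 2.44% for sense-overlapping RNAs, 6.67% for lincRNAs and 10.3% for antisense RNAs. With 1 library on each side these are descriptions, and no difference between classes was tested.

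**Figure D3:**
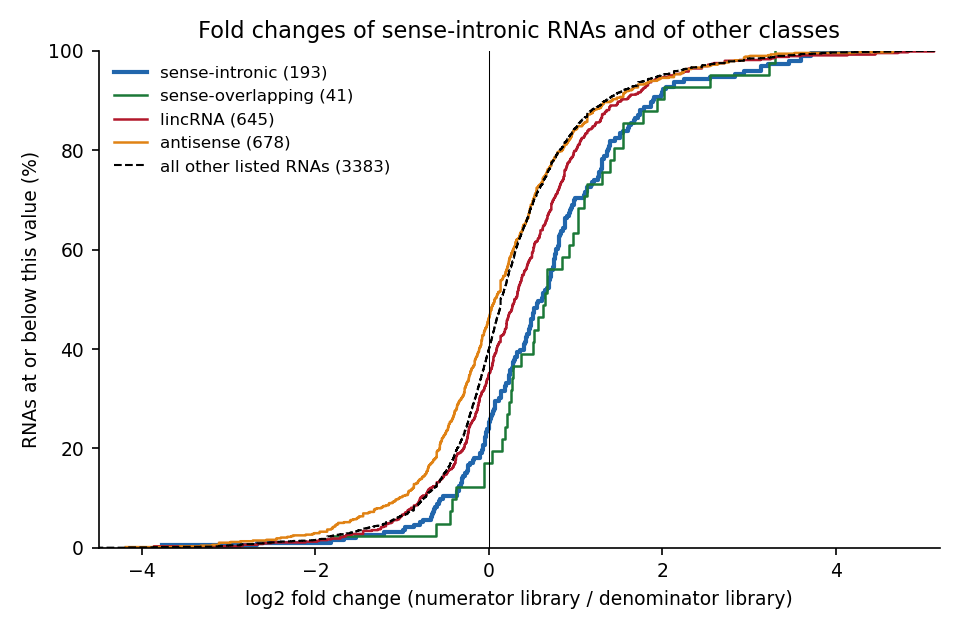
Cumulative share of RNAs (y, percent) at or below each log2 fold change (x, numerator library over denominator library) for 193 sense-intronic RNAs and for the other classes. The sense-intronic curve lies to the right of the lincRNA, antisense and dashed all-other curves over most of the range, and runs beside that of the sense-overlapping RNAs.

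Of 80 members with at least 30 reads in the larger number of the pair, 17 were higher by 2-fold and 1 lower. Of all listed RNAs with that many reads, 9.6% were higher by 2-fold and 1.99% lower. STARD13-IT1, in intron 3 of STARD13, which encodes a GTPase-activating protein, was highest at 4.0-fold (2.18 to 7.83), from 51 reads in the numerator library against 14 in the denominator library. WWTR1-IT1, in intron 3 of WWTR1, the Hippo pathway coactivator also called TAZ, stood at 2.84-fold (2.01 to 4.09), from 119 reads against 46. Both intervals lie wholly above 2-fold. The lncRNA WWTR1-AS1, on the opposite strand of the same gene, stood at 1.08-fold (0.718 to 1.62).

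AC124312.5 lies in an intron of AC124312.1 in the imprinted region on chromosome 15 that also holds the long transcript SNHG14. It stood at 3.19-fold (2.33 to 4.44), from 157 reads against 54. PWAR5, a lncRNA in the same intron, stood at 1.63-fold (1.5 to 1.78), from 1305 reads against 877. The intervals of the 2 RNAs do not overlap. A listed SNHG14 transcript rests on a pair of 3 against 2.

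Z83843.1 lies in intron 6 of FTX, a lncRNA gene of the X-inactivation centre, and stood at 2.74-fold (2.14 to 3.53), from 227 reads against 91. A second member is itself annotated as an FTX transcript in GENCODE 29, which holds another version of it, with 7 exons. It stood at 2.26-fold (1.70 to 3.01), from 154 reads against 75. The listed RefSeq transcript of FTX stood at 1.56-fold (1.12 to 2.19), from 91 against 64. The microRNA precursors in FTX had small pairs, 7 against 6 for MIR421, 2 against 1 for MIR374B and 3 against 2 for MIR374A.

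Also among the 10 highest of this depth were AC113398.2 in ZNF608 at 3.46-fold (1.82 to 7.05), AP000526.1 in the transcribed pseudogene DUXAP8 at 3.34-fold (2.06 to 5.61) and AC068790.5 in CCDC92 at 3.23-fold (1.80 to 6.10). AC108449.2, in the telomere-binding homeobox gene HMBOX1, stood at 3.06-fold (1.78 to 5.48), from 53 reads against 19. AC099343.2, in the first intron of the interferon regulator IRF2, stood at 3.04-fold (1.58 to 6.25), from 36 reads against 13. Pseudogenes such as DUXAP8 have near copies in the genome, so the value of AP000526.1 is uncertain. All 10 highest had a counting interval above 1-fold, which follows from their choice by fold change among pairs of this size and is no separate support.

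At the other end, ZBTB40-IT1, in intron 14 of the zinc-finger gene ZBTB40, was 3.54-fold lower in the numerator library (1.67 to 8.38), from 9 reads against 35. AC084117.1, in LDHA, which encodes lactate dehydrogenase A, was 1.98-fold lower (1.09 to 3.75), from 17 reads against 37. AC008982.2, in intron 4 of the splicing regulator HNRNPL, was 1.59-fold lower (1.10 to 2.32), from 47 reads against 82. These 3 were the only ones of the 10 lowest whose interval left out 1-fold.

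Intervals that held 1-fold, still among the 10 lowest, were those of AC020915.2 in ZNF544 at 0.637-fold, AL021878.2 in the complex I gene NDUFA6 at 0.678-fold, AF129075.1 in the chaperonin gene CCT8 at 0.772-fold, AC025766.1 in KIAA0825 at 0.858-fold, AC011477.2 in ZNF506 at 0.886-fold and AC009996.1 in the translation factor gene EIF3J at 0.935-fold. The host intron was no longer than 10796 bases, the median over members inside an intron, for 0 of the 10 highest and for 8 of the 10 lowest. It ran from 12718 to 143394 bases for the 10 highest and from 1544 to 81372 bases for the 10 lowest.

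**Figure D4:**
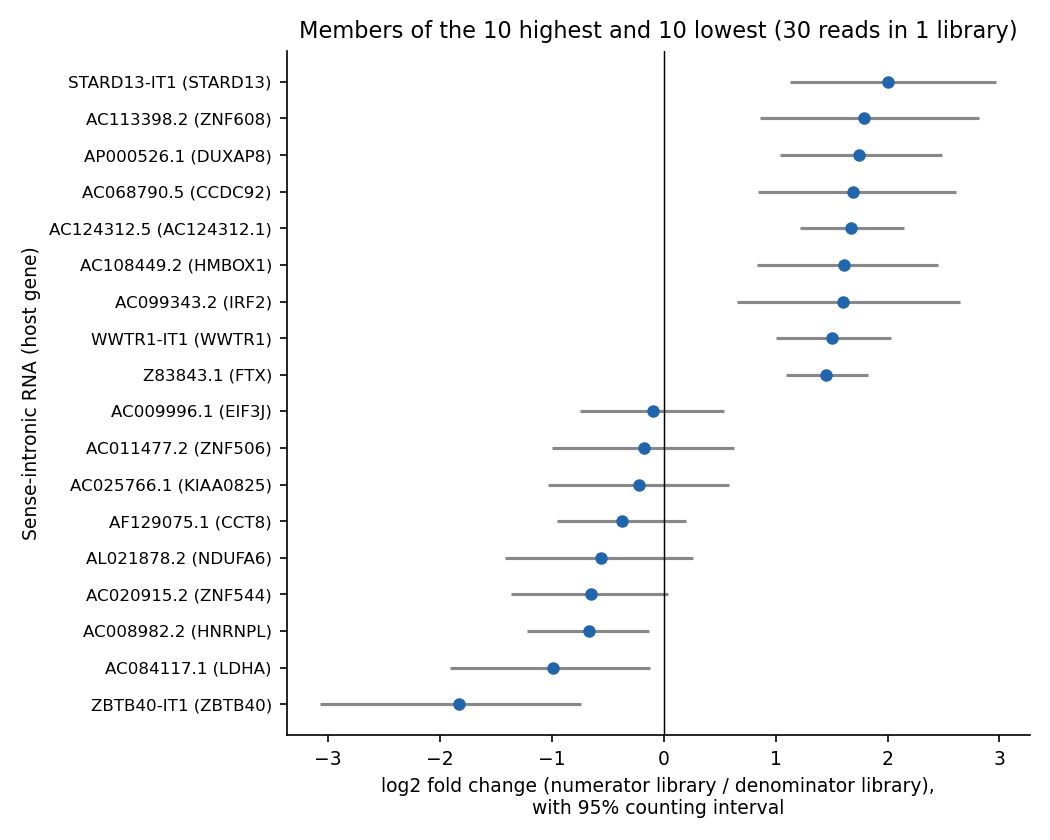
Log2 fold change, numerator library over denominator library (x), with exact 95% counting intervals, for 9 of the 10 highest and 9 of the 10 lowest sense-intronic RNAs with at least 30 reads in 1 library, each with its host gene. The highest runs from STARD13-IT1 at 2.0 down to Z83843.1 at 1.45, and the lowest is ZBTB40-IT1 at -1.82.

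Of the 5 members with most reads, 4 lay between 1.05-fold and 1.34-fold. ANKRD10-IT1 led with 520 reads in the numerator library against 427, at 1.34-fold (1.17 to 1.52), and a non-coding ANKRD10 transcript in the table stood beside it at 1.27-fold (1.0 to 1.62). AC022150.4, in the zinc-finger gene ZNF83, stood at 1.32-fold (1.12 to 1.56), from 314 reads against 261. The transcript given to DEXI stood at 1.05-fold (0.882 to 1.24), from 267 against 280, and overlaps an exon of CIITA on the opposite strand. The transcript given to C16orf72 stood at 1.14-fold (0.953 to 1.36), from 259 against 250. Z83843.1, described above at 2.74-fold, was the fifth.

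At 4-fold or more, 17 members were higher and 2 lower, against backgrounds of 5.03% and 1.57%. Of these 19, 12 have a 1 in the pair, which can stand for 0 reads. AC007906.1, in the chromatin remodeller gene CHD9, had the highest value of the class at 20.9-fold (3.32 to 867.1), from a pair of 19 against 1. AC121320.1, in TAF4B, a gene of the TFIID transcription factor family, was next with a pair of 12 against 1. DPYD-IT1, in the pyrimidine catabolism gene DPYD, had a pair of 11 against 1 with an interval of 1.76-fold to 520.1-fold. AL158166.1, in the phosphatase gene PTPRE, had the lowest value at -3.77 on the log2 scale, from 1 read against 15.

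The 19 members with an IT symbol, named by their host as intronic transcripts, ranged from -1.82 to 3.59 on the log2 scale. Of these 14 stood above 0, as did 127 of the other 169 members in the annotation. The median was 0.44 on the log2 scale, against 0.62 for those 169. By 2-fold, 6 (31.6%) were higher, against 29.6% of those 169 and a background of 16.3% over all listed RNAs. By the same margin 2 were lower, against 4 of those 169 and a background of 6.35%. RC3H1-IT1, in the gene of the RNA-binding ubiquitin ligase roquin, stood at 40 reads against 23, and FMR1-IT1, in the fragile X gene, at 9 against 5. KDM5C-IT1, in a histone demethylase gene, stood at 15 reads against 28, and RHOA-IT1, in the gene of the cytoskeletal GTPase RHOA, was 2.32-fold lower (1.12 to 5.16), from 11 reads against 28.

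Host genes were also read against 13 lists of genes by function, 731 genes in all, which hold the hosts of 9 members. The lists are partial, so an empty list does not mean that no host has that function. Hosts of no member were on the lists of DNA repair genes (65 genes), EGF family genes (14) or pigment cell genes (29). The repair list lacks the hosts SPIDR and FAN1, as well as UVSSA, described below. AC024451.4 in SPIDR stood at 2.61-fold (1.09 to 6.89) and AC087481.3 in FAN1 at 1.05-fold (0.867 to 1.28). The lists of blood (20 genes), fibroblast and endothelial (21), and epithelial genes (15) also held none. The blood list lacks the hosts CD22 and ITGB2. U62631.1 in CD22 stood at 2.39-fold (1.31 to 4.53) and AL844908.2 in ITGB2 at 3.11-fold (1.17 to 9.64). Of the 9 members, 7 stood above 0, 2 were higher by 2-fold and 1 lower, with a median of 0.23. The chromatin list held AC007906.1 in CHD9, described above, and AL645941.1 in BRD2 at 0.23 on the log2 scale. It lacks hosts with members on both sides of 0. Members in KDM5C, KAT8 and SIN3B stood at -0.77, -0.07 and -0.0021 on that scale. RSF1-IT2 in RSF1 stood at 2.94 from a pair of 7 against 1, and AF230666.2 in PHF20L1 at 2.25. AC006141.1 in MBTD1 stood at 0.95 and AL031666.3 in ZMYND8 at 0.28. SOS1-IT1, in the RAS activator gene SOS1 and the only member on the MAPK list, stood at 2.56-fold (0.585 to 15.4), from a pair of 7 against 3. That list lacks the host MAPK6, in which AC090970.1 stood at 3.73-fold (1.32 to 12.9). The cytoskeleton list held RHOA-IT1 and AC092756.1 in MYO1E, at -1.21 and 0.65 on the log2 scale. The ubiquitin list held ITCH-IT1 at 0.44 and AC090236.2 in NEDD4L at 0.19, but it lacks RC3H1, whose RC3H1-IT1 stood at 0.93. The cell cycle list held AC002558.3 in CDC27 at 0.14, and the RNA processing list AC008982.2 in HNRNPL at -0.67.

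Members of 1 host share their source and are not replicates, and 10 hosts held more than 1. The 4 in the first intron of CCDC92 all had values above 1-fold. They ran from 1.69-fold for AC068790.6 (20 reads against 13) through 1.78-fold for AC068790.2 and 2.47-fold for AC068790.4 to 3.23-fold for AC068790.5. Only the interval of AC068790.5 left out 1-fold, and those of AC068790.6, AC068790.2 and AC068790.4 held it. The 3 in KLC1, a kinesin light chain gene, lay within 0.084 of each other on the log2 scale, between 1.21-fold and 1.29-fold, and each interval held 1-fold. The members in C16orf72 lay 0.062 apart and those in XKR6 0.10 apart on the log2 scale, while the members in some other hosts were wider apart. The C16orf72 members end at the same base, and AC087190.3 lies wholly within exons of the host. Their sequences thus overlap, and the same reads may count for both. In DUXAP8, AP000526.1 stood at 3.34-fold and AP000525.1 at 1.08-fold (0.781 to 1.51), intervals that do not overlap. In SMIM7, AC024075.2 stood at 1.76-fold (1.39 to 2.22) and AC024075.1 at 1.0-fold (0.750 to 1.34) in the same intron. In UVSSA, a gene of transcription-coupled repair that is not on the DNA repair list used here, AC078852.1 stood at 3.95-fold (1.41 to 13.6) and AC078852.2 at 1.61-fold (0.799 to 3.34). JPT1 held AC022211.1 at 1.63-fold and AC022211.3 at 0.845-fold. FTX, XKR6 and C16orf72 were also among these hosts. XKR6 held AF131215.6 at 1.65-fold (0.189 to 19.7), from a pair of only 3 against 2, and AF131215.5 at 1.53-fold (0.991 to 2.39). AC087190.3 in C16orf72, at 0.25 on the log2 scale in the authors' deposited table, is the 1 member with no recovered pair.

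Other listed RNAs lay inside the hosts of 23 members. On the same strand there were 28 such pairings, between 17 members and 21 other RNAs, and the member had the higher value in 18 of them. The pairings are not independent. FTX and DUXAP8 each hold 2 members, and both members are paired with the same RNAs. In FTX the member was higher in every same-strand pairing. In DUXAP8, AP000526.1 was higher and AP000525.1 lower in every pairing. The median was 1.17 for the members, which is the value of the FTX transcript itself. For the other RNAs it was 0.68 on the log2 scale, counting an RNA once per pairing. AC108142.1 in TENM3 stood at 1.87 and MIR1305, in the same intron, at 2.14, while AL596087.2 in FAM78B stood at 0.43 and MIR921, in the same intron, at 2.94 from a pair of 7 against 1. AC118344.1 in AKT2 stood at 0.70 and MIR641, in the same intron, at -0.06. The pairs of these 3 precursors hold fewer than 10 reads in each library. On the opposite strand the member had the higher value in 6 of 11 pairings. AL133330.1 in CD44 stood at 0.90 and CD44-AS1 at -0.72, from 16 reads against 29. AL021707.8 in SUN2 stood at -0.64, from 7 reads against 12, below all 4 antisense RNAs listed in that gene, which ran from -0.45 to 0.55. AC080013.3 in MFSD1 stood at -0.10, below AC080013.5 at 0.14, which rests on a pair of 1 against 1. The pairs of the antisense RNAs in SUN2 and MFSD1 hold fewer than 10 reads in each library, so these orders are uncertain.

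Structural features of the members were then set against the fold change, 8 as ranks and 7 as splits into a pair of groups. GC content, the intron features and host gene length stood out among them. GC content was added after values had been seen, so these relations are descriptions of the same data. The fold change varied with base composition. In the tertile of members with the lowest GC content (21.1% to 39.9%), the median log2 fold change was 1.11 and 32 of 63 were at least 2-fold higher. In the middle tertile it was 0.49, with 16 of 63. In the highest (46.2% to 73.8%) it was 0.23, with 8 of 62 at least 2-fold higher. Of the 6 members at least 2-fold lower, 0 were in the lowest tertile, 1 in the middle and 5 in the highest. Spearman's correlation between GC content and log2 fold change was -0.34 over 188 members, which share the same libraries, and this is a description without a test.

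The same order was seen in lincRNAs and antisense RNAs but not in sense-overlapping RNAs. Among lincRNAs the median was 0.68 under 40% GC, 0.39 from 40% to 46% and 0.08 above 46% (correlation -0.25 over 570 RNAs). Among antisense RNAs it was 0.47, 0.21 and -0.01 (correlation -0.17 over 666 RNAs). Among the 36 sense-overlapping RNAs with a sequence it was 0.68, 1.03 and 0.26, highest in the middle range (correlation -0.30). Sense-intronic transcripts have a median GC content of 42.85%, lincRNAs 47.2% and antisense RNAs 51.55%, so the classes also differ in composition. Within the same GC ranges, the share at least 2-fold higher was 50.8% for sense-intronic RNAs under 40% GC, against 25.3% of lincRNAs and 27.1% of antisense RNAs. From 40% to 46% it was 25.4%, against 24.4% of lincRNAs and 16.8% of antisense RNAs, and above 46% it was 12.9%, against 15.2% of lincRNAs and 13.9% of antisense RNAs. Sense-overlapping RNAs had 4 of 11 (36.4%) under 40% GC, 6 of 10 (60%) from 40% to 46% and 5 of 15 (33.3%) above 46%, so the members stood above that class only in the lowest range. The part of GC content in the class difference was not tested.

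The fold change also varied with the size of the host intron. For the tertile of members in the shortest introns (1066 to 6064 bases) the median log2 fold change was 0.05, with 10 of 58 at least 2-fold higher. It was 0.48 in the middle tertile, with 17 of 58. In the longest introns (18028 to 275745 bases) it was 0.87, with 24 of 59 at least 2-fold higher. Spearman's correlation was 0.37 over 175 members, and it was 0.45 over the 72 with at least 30 reads and 0.31 over the 102 with fewer. For GC content, the same 2 groups gave -0.36 and -0.35. GC content and intron length were themselves only weakly related (correlation -0.16).

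**Figure D5:**
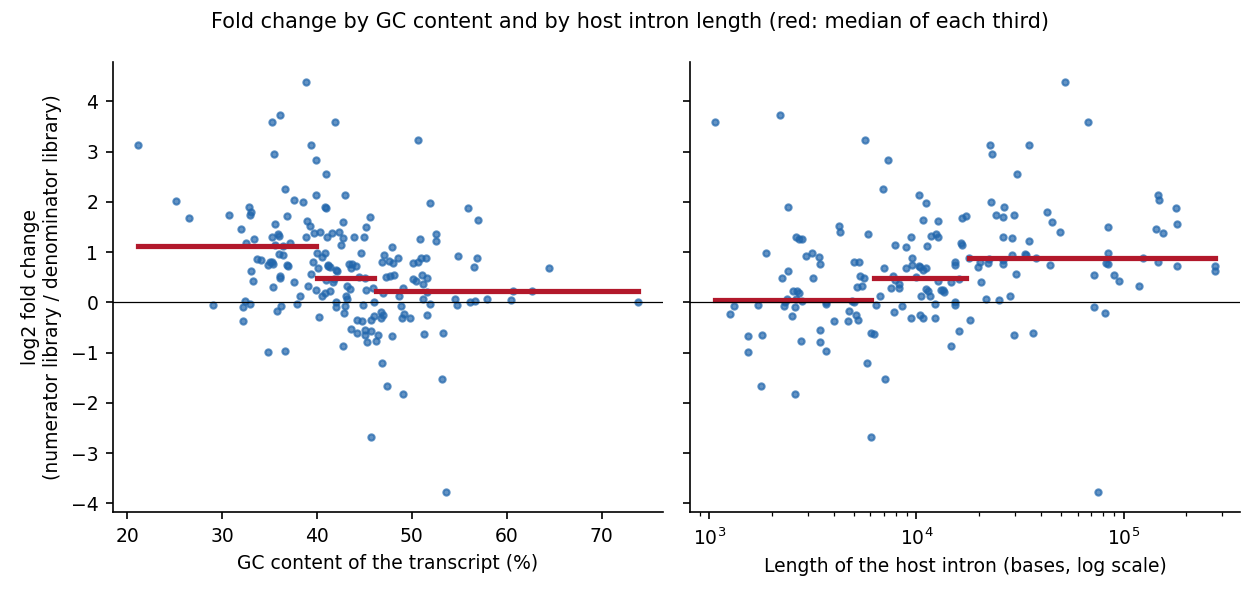
Log2 fold change of each sense-intronic RNA, numerator library over denominator library (y), by GC content of its transcript in percent (left, 188 members) and by length of its host intron in bases on a log scale (right, 175 members). Red bars are tertile medians, at 1.11, 0.49 and 0.23 by GC content and at 0.05, 0.48 and 0.87 by intron length.

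Taking both features at their medians, members in long introns and of low GC content had a median of 1.05, with 26 of 52 at least 2-fold higher. Members in short introns and of high GC content had a median of 0.02, with 4 of 52 higher by 2-fold and 5 lower. The mixed groups lay between, at 0.69 for long introns with high GC content (35 RNAs) and 0.70 for short introns with low GC content (36 RNAs). The larger number of the pair had medians of 20, 22.5, 22 and 25.5 reads in these 4 groups, in the order given. These are the least reads possible, so real depth was not compared.

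Distance to the end of the intron varied with the fold change about as much as intron length. It gave medians of 0.07, 0.67 and 0.87 from the nearest to the farthest tertile (correlation 0.35). Distance from the start of the intron gave 0.26, 0.61 and 0.81 (correlation 0.27). Neither distance can exceed the intron length. Host gene length gave medians of 0.19, 0.70 and 0.90 from the shortest to the longest tertile (correlation 0.31), and it contains intron length. The remaining features went with smaller differences. Distance from the start of the host gave 0.46, 0.72 and 0.67. Members in a first intron had a median of 0.76 (54 RNAs) and those in later introns 0.49 (121 RNAs). Transcripts of 1 exon and of 2 or more exons stood at 0.62 and 0.60. Members with a polyadenylation hexamer stood at 0.72 and those without at 0.52. The 16 members that overlap an exon of their host had a median of 0.24, with 2 at least 2-fold higher, and the other 172 in the annotation 0.69. Spearman's correlation between transcript length and log2 fold change was -0.07, and between reads and log2 fold change -0.13. In RNA from bulk cells, a change in some cells and a change of RNA per cell cannot be told apart for any of these members.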

How the data were processed

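RNA of A375 cells was isolated with a TransZol reagent, and sequencing libraries were built with a kit for mRNA, per the labels' protocols. The submitters' processing notes name only mm10, a mouse build, although the identifiers are human. No source used here names the aligner, the counting or the test. The log2 fold changes, p-values and q-values were deposited by the authors, per the file headers. A further 2 per-sample columns could not be tied to a labelled sample and were not used. Coordinates and sequences come from GENCODE 29 by transcript identifier, not from the deposited table.

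The most frequent log2 fold change, 0.14, shared by 66 RNAs, was taken as that of equal read numbers. From there, the simplest ratio of whole numbers no larger than 3000 was sought for each RNA, within a relative tolerance of 1.5e-09; this step was tested on simulated data. A host is a gene on the same strand that spans the member, with protein-coding genes preferred. The intron is that of the host transcript with most exons among those with an intron that holds the whole member. Introns are numbered along that transcript, so a first intron need not be the first of the longest host transcript.

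Named members were the 10 highest and 10 lowest with at least 30 reads in the pair, any with q under 0.05, the 5 with most reads, members 2-fold apart whose host is on a list, and members of the 3 hosts that hold most. Because 8 hosts tied at the last place, all were included. Others named were chosen after their values were seen. These were members at 4-fold, with an IT symbol, on a list below 2-fold, or sharing a host with another listed RNA. Members of some hosts that a list lacks were also chosen in this way. The members and lists were chosen with earlier results of these data known. GC content, its comparison across classes, its split with intron length, the splits by reads, the hexamer, IT symbol and overlap splits, and the sequences shown were chosen after values had been seen, and the set of sequences was changed once. Some members, host genes and sequences are not reported here, although counts and medians include all members. No test was run, since each dose has 1 library. Tools were matplotlib 3.10.9, scipy 1.17.1, pandas 2.3.3 and numpy 2.4.6 under Python 3.11.15.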

Additional observations from a re-analysis of the deposited data

How the results depend on the processing

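Of 31 alternative values for the median and the counts at 2-fold, 25 stayed within 1.5 times of the value reported, a margin set after the data were seen. A further 6 moved by more and 0 changed sign. With at least 50 reads in 1 library, the median log2 fold change of sense-intronic RNAs was 0.40, and 10 of 52 members were higher by 2-fold and 0 lower. A 4-fold threshold gave 17 higher and 2 lower, by its own construction. Requiring that the counting interval leave out 1-fold gave 36 at least 2-fold higher and 4 lower, since fewer members can meet it. For the read minimum the cause was not tested. Scaling to the median of all listed RNAs gave a median of 0.45, scaling to lncRNA rows 0.51, and 1 value per host gene 0.55. Without members that have a 1 in the pair or no pair, 44 were higher by 2-fold and 4 lower. Relative to the 50 RNAs with the largest deposited p-values, whose median is -0.13, the members' median was 0.75. That scaling and the removal of members that overlap an exon of the host or of the opposite strand, which gave 0.66, were chosen after the data were seen. No paired analysis was possible because each dose has a single library. Depth limits the 19 members with a 1 in the pair most.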
